A study of Mus musculus with 4 samples.

Results

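The B lineage genes are 35 genes whose transcripts mark B lymphocytes and their precursors. The list was made by symbol, with earlier results of these data known. All 35 were found among the 54532 genes of the deposited tables. They were measured in RNA prepared from PMN-MDSC (polymorphonuclear myeloid-derived suppressor cells), immature granulocytes able to hold back T lymphocytes, taken from the spleens of newborn C57BL/6 mice. Purified cells were kept for 5 days with NECA, a long-lived mimic of adenosine that acts on its receptors, or with DMSO, the control condition of the labels, and each condition has 2 libraries. No genotype other than the strain is named in the labels, and they leave unstated whether libraries of one condition stem from separate animals or cultures, so p-values measure only the spread between these libraries, which may be technical. The comparison asks what the adenosine analogue changes in the RNA of these preparations, and it is described here for transcripts that belong to another lineage than the labelled cell type.

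B cells carry an antigen receptor made of paired immunoglobulin heavy and light chains, held at the membrane with the signalling subunits CD79A and CD79B. Precursors rearrange the heavy chain gene first and test it with a surrogate light chain. The factors EBF1 and PAX5 fix the lineage. In the newborn spleen, B cells at several stages lie beside granulocytes, macrophages and erythroid precursors.

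Of the 35 genes, Blnk, Btla and Bach2 (3 genes) were lower with NECA in the test across all genes, and the 250 bases before the RefSeq start of each are shown. The window of Vpreb3 is added because it is the other that holds the octamer, the site of a B cell coactivator. Capitals mark every match, on either strand, to the octamer ATGCAAAT (the site of Oct factors and their B cell coactivator), the ETS core GGAAGT (bound by Spi-B and relatives) and the E box CAGGTG (bound by E2A proteins).
Blnk (chr19:40994222-40994471, minus strand): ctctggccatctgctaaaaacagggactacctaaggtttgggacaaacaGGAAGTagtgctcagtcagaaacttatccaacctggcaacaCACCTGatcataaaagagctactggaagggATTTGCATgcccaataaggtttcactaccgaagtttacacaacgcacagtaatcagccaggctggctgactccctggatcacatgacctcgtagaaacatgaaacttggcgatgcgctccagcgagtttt
Btla (chr16:45224087-45224336, plus strand): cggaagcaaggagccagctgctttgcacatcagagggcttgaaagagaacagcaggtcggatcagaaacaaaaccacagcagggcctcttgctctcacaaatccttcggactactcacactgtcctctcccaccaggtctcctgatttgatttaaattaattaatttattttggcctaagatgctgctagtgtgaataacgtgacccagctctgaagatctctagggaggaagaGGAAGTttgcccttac
Bach2 (chr4:32417185-32417434, plus strand): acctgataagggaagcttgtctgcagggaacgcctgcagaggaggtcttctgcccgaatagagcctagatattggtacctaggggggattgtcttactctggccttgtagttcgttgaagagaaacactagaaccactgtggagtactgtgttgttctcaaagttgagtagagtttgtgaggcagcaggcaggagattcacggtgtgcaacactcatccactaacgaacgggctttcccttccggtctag
Vpreb3 (chr10:75948050-75948299, plus strand): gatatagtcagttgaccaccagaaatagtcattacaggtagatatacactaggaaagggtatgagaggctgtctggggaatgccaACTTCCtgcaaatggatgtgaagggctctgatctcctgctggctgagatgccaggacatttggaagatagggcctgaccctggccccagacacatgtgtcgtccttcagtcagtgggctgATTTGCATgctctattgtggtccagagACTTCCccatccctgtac
All are written 5′ to 3′ on the strand of the gene, from RefSeq on GRCm38.p6. A window was given for 23 of the 35 genes (27 windows, as some genes have several starts). The octamer was in 2 of the 27 windows, those of Blnk (beginning 130 bases before the start) and Vpreb3 (45 bases before it), against 1.6% of all 32851 windows of this length. The ETS core and the E box were in 10 and 12 of the 27, against 19.7% and 17.2%. The Bach2 window held none of the 3. The windows of Bach2, Blnk and Vpreb3 lie before RefSeq starts inside the spans that GENCODE gives these genes, and that of Btla reaches into its span. No matches overlap each other in the windows shown. Such matches describe the letters of the window and do not show binding. The genes and motifs were chosen with results of these data known, and the motif shares were not tested.

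Total depth was 15864120 to 18712625 counts per library, lowest in NECA replicate 2. The preparations carried the markers of the labelled cells: all 16 neutrophil and PMN-MDSC markers were detected in every library, with Ngp, a granule protein, at 29075 and 29079 CPM under DMSO against 29790 and 29319 under NECA. CPM here are counts divided by the library size in units of 1000000 counts, with sizes scaled by TMM (trimmed mean of M values). The 35 B lineage genes together held 7231 and 7799 counts with DMSO and 4209 and 1041 with NECA. As a share of all counts this was 0.0389% (exact binomial 95% interval 0.0380 to 0.0398%) and 0.0422% (0.0412 to 0.0431%) with DMSO, and 0.0225% (0.0218 to 0.0232%) and 0.00656% (0.00617 to 0.00697%) with NECA. Intervals in this text cover counting error only. Both NECA libraries lay below both DMSO libraries, and NECA replicate 2 lay well below NECA replicate 1. In bulk RNA, fewer B lineage cells and less RNA per cell cannot be told apart.

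Transcripts of the B lineage were lower in both NECA libraries, but only 3 genes passed the test. Of the 35 genes 32 had enough counts to test, and of these 0 were higher, 3 were lower and 29 did not pass edgeR's quasi-likelihood test at an adjusted p under 0.05. Among all 13083 genes tested, 0.978% were lower and 0.352% were higher. The 32 fitted log2 fold changes of NECA against DMSO ran from -2.59 to -0.42 with a median of -1.63, and the median of all genes tested was -0.01. In 31 of the 32 genes both NECA libraries were below both DMSO libraries, a pattern that 24.3% of all genes tested showed. Cr2, the complement receptor of mature B cells, was the exception, at 1.36 and 2.12 CPM under DMSO against 1.54 and 0.0646 under NECA. Lower at an unadjusted p under 0.05 were 26 of the 32, against 8.88% of all genes tested. Of the 32 genes, 19 had at least 10 counts in each DMSO library but under 10 in a NECA library. Their DMSO libraries were enough to pass the filter on low counts, and their NECA libraries alone were not. For that reason, and because the 35 genes were chosen with earlier results of these data known, the counts and medians over tested genes are descriptions.

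**Figure D1:**
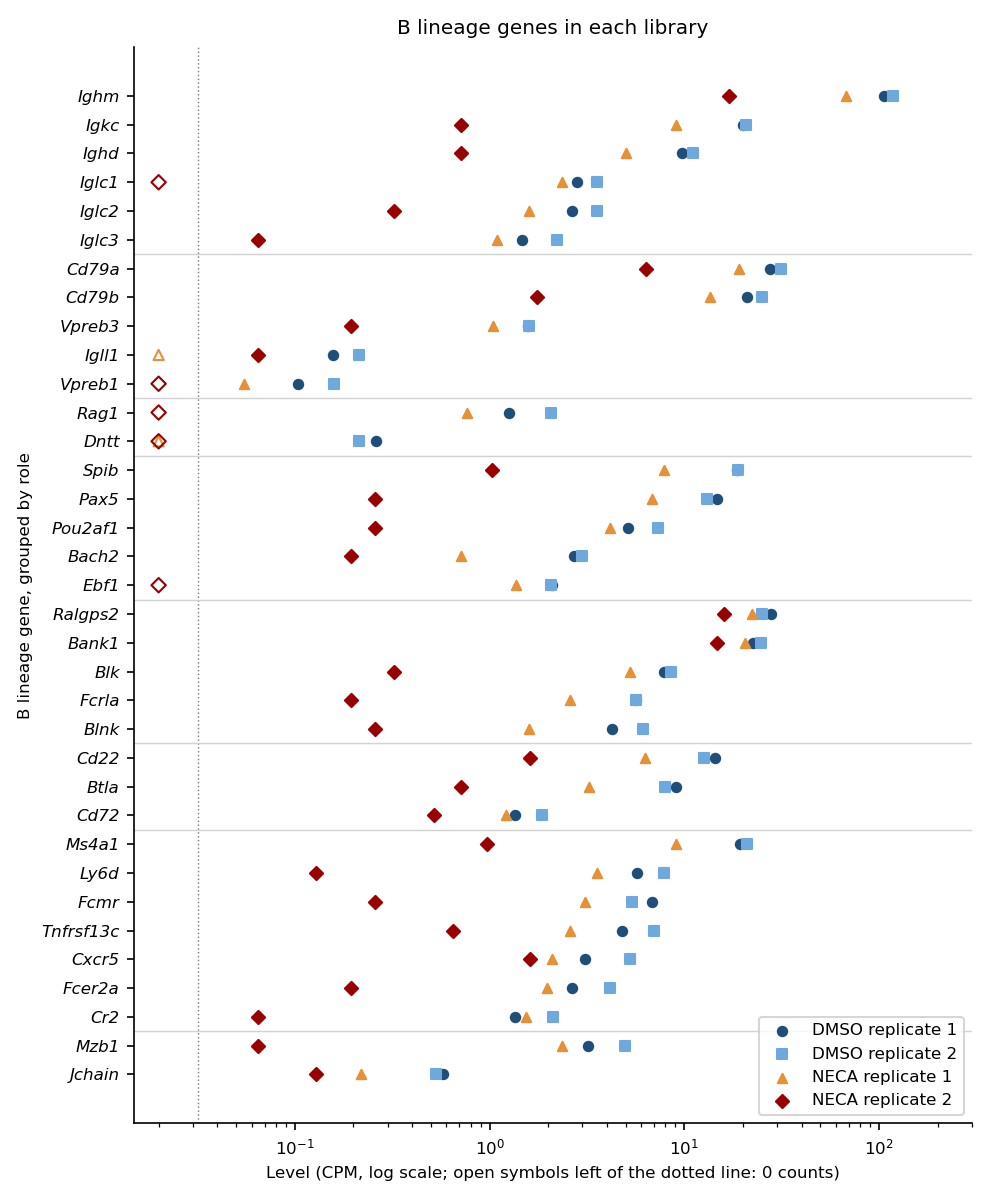
Level of each of the 35 B lineage genes (CPM, log axis) in each library, grouped by role from antigen receptor chains at the top to antibody secretion at the bottom; open symbols left of the dotted line stand for 0 counts. NECA replicate 2 is the lowest library for all 32 tested genes, while NECA replicate 1 lies between it and the DMSO libraries for all of them but Cr2.

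Of the antigen receptor chains none of the 6 passed edgeR's test, with 5 lower at an unadjusted p under 0.05, against 8.88% of all genes (DESeq2 called none either). Ighm, the constant region of IgM heavy chains (chromosome 12, 113418558 to 113422730, GRCm38), had 105 and 117 CPM under DMSO against 67.4 and 17.1 under NECA. Its DMSO libraries lay close together and its NECA libraries far apart, both below them, and the log2 fold change was -1.38 (SE 0.37, adjusted p = 0.0923). Ighd, the IgD heavy chain that mature naive B cells add by splicing (chromosome 12, 113406604 to 113416324), stood at 9.77 and 11.1 CPM under DMSO against 5.00 and 0.711 under NECA, a log2 fold change of -1.83 (SE 0.49, adjusted p = 0.0923). Igkc, the kappa light chain constant region (chromosome 6, 70726435 to 70726966), had 20.1 and 20.7 CPM under DMSO against 9.12 and 0.711 under NECA, and again only NECA replicate 2 was near 0 (log2 fold change -2.01, SE 0.55, adjusted p = 0.0961). Thus all 3 chains kept the order of the libraries, with DMSO above NECA replicate 1 and NECA replicate 2 lowest. Iglc1, a lambda constant region, had 54 and 67 counts with DMSO and 43 and 0 with NECA. The lambda region Iglc2 had 51 and 67 counts with DMSO and 29 and 5 with NECA, and Iglc3 had 28 and 42 counts with DMSO and 20 and 1 with NECA. The 0 of Iglc1 in NECA replicate 2, at a floor of 3 counts in that library, made its level there at least 16.5-fold lower than the DMSO mean. The log2 fold changes of the lambda regions of -1.37, -1.65 and -1.60 did not pass (adjusted p = 0.437, 0.153 and 0.318).

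Compared per length, as FPKM, Ighm was the most abundant of the 35 genes in each library, with 55.7 and 62 FPKM with DMSO and 35.8 and 9.07 FPKM with NECA. Igkc had 37.7 and 38.8 FPKM with DMSO and 17.2 and 1.34 FPKM with NECA. Cd79a had 18.8 and 21.5 FPKM with DMSO and 13.1 and 4.36 FPKM with NECA, so it stood below Igkc in 3 libraries and above it in NECA replicate 2. The share of kappa in the summed FPKM of the 4 light chain constant regions was 73.3% and 67.7% with DMSO and 62.6% and 66.6% with NECA. In counts the kappa share was 74.3% (exact binomial 95% interval 70.3 to 78%) and 68.9% (64.9 to 72.7%) with DMSO, against 64.3% (58.2 to 70.2%) in NECA replicate 1 and 64.7% (38.3 to 85.8%) in NECA replicate 2, where only 17 light chain counts were left (11 kappa and 6 lambda). Those intervals overlap except for NECA replicate 1 against DMSO replicate 1. Ighd was 8.48% (7.35 to 9.73%) and 8.64% (7.55 to 9.83%) of the Ighm and Ighd counts with DMSO, and 6.90% (5.6 to 8.41%) and 4.0% (2.01 to 7.04%) with NECA. At this depth NECA replicate 2 thus held relatively less Ighd than either DMSO library.

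Cd79a and Cd79b, which encode the signalling subunits of the antigen receptor, did not pass the test. Cd79a (chromosome 7, 24897381 to 24902197) had 27.5 and 31.5 CPM under DMSO against 19 and 6.33 under NECA, a log2 fold change of -1.20 (SE 0.32, adjusted p = 0.0915). Cd79b (chromosome 11, 106311341 to 106314762) had 21 and 25.1 CPM under DMSO against 13.6 and 1.74 under NECA, a log2 fold change of -1.55 (SE 0.50, adjusted p = 0.148). The FPKM ratio of Cd79b to Cd79a was 0.776 and 0.810 with DMSO, 0.727 in NECA replicate 1 and 0.281 in NECA replicate 2. The paired subunits therefore kept similar proportions in 3 libraries and not in the last.

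Transcripts of B cell precursors were scarce in every library. Vpreb1, a subunit of the surrogate light chain, had 2 and 3 counts with DMSO and 1 and 0 with NECA. Igll1, its partner, had 3 and 4 counts with DMSO and 0 and 1 with NECA. Both had too few counts to test, and Vpreb1 also shares 108 bases of exon with the antisense gene Top3b and a 260-base stretch with Vpreb2, which had 0 counts in every library. Dntt, the enzyme that adds bases at rearranged joints, had 5 and 4 counts with DMSO and 0 and 0 with NECA and was not tested either. Rag1, a subunit of the recombinase, had 24 and 39 counts with DMSO and 14 and 0 with NECA (log2 fold change -2.02, SE 0.83, adjusted p = 0.261), and its level in NECA replicate 2, taken at the floor of 3 counts, was at least 8.58-fold lower than the DMSO mean. Vpreb3, a chaperone-like partner of immunoglobulin chains, had 30 and 30 counts with DMSO and 19 and 3 with NECA (log2 fold change -1.30, SE 0.64, adjusted p = 0.352). NECA replicate 2 was at or near 0 for all 5 genes.

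Among the transcription factors, Bach2 fell with NECA and 4 others did not pass. Bach2, a repressor that holds B cells back from the plasma cell fate (chromosome 4, 32238804 to 32586108), stood at 2.72 and 2.97 CPM under DMSO against 0.714 and 0.194 under NECA. Both NECA libraries were far below the DMSO libraries, and the log2 fold change was -2.59 (SE 0.54, adjusted p = 0.0417). Bach2 had the largest fitted fall of the 32 tested genes, and its exons share 537 bases with the antisense gene Bach2os, which had 0 to 2 counts per library. In counts Bach2 had 13 and 3 in the NECA libraries, and NECA replicate 2 stood at 6.81% (1.38 to 20.5%) of the DMSO level, the range being an exact 95% counting interval. The other 4 factors had both NECA libraries below both DMSO libraries as well, a pattern that 24.3% of all genes tested showed. Spib, an ETS factor of B cells and plasmacytoid dendritic cells, had 18.7 and 18.9 CPM under DMSO against 7.85 and 1.03 under NECA (log2 fold change -2.04, SE 0.48, adjusted p = 0.066). Pax5, which fixes the B cell identity, had 14.7 and 13 CPM under DMSO against 6.86 and 0.258 under NECA, with a NECA replicate 1 at about 49.5% of the DMSO mean and a NECA replicate 2 at 1.86% of it (log2 fold change -1.91, SE 0.62, adjusted p = 0.151). Pou2af1, the coactivator of octamer binding factors, had 5.12 and 7.33 CPM under DMSO against 4.17 and 0.258 under NECA (log2 fold change -1.44, SE 0.63, adjusted p = 0.288). Its NECA replicate 1 lay just under the lower DMSO library. Ebf1, the early B cell factor, had 40 and 39 counts with DMSO and 25 and 0 with NECA (log2 fold change -1.53, SE 0.81, adjusted p = 0.396). In NECA replicate 2 this was 10.7-fold lower than the DMSO mean at the floor of 3 counts. The exact 95% counting interval reached up to 11.7% of the DMSO level.

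The adaptor Blnk, which links the activated receptor to phospholipase C, fell with NECA (chromosome 19, 40928927 to 40994535). It stood at 4.23 and 6.16 CPM under DMSO against 1.59 and 0.258 under NECA. The groups did not overlap, as for 24.3% of all genes tested in this direction. The log2 fold change was -2.43 (SE 0.52, adjusted p = 0.0479). Counts of Blnk were 29 and 4 in the NECA libraries. The Src family kinase Blk had 7.89 and 8.50 CPM under DMSO against 5.27 and 0.323 under NECA (log2 fold change -1.50, SE 0.61, adjusted p = 0.25). Fcrla, an intracellular Fc receptor-like protein, had 5.64 and 5.63 CPM under DMSO against 2.58 and 0.194 under NECA (log2 fold change -1.97, SE 0.59, adjusted p = 0.121). Bank1, a scaffold of B cell signalling, and Ralgps2, an exchange factor for Ral GTPases, had another profile. Bank1 stood at 22.5 and 24.7 CPM under DMSO against 20.4 and 14.7 under NECA. Ralgps2 stood at 28 and 24.9 CPM under DMSO against 22.1 and 15.9 under NECA. For both, NECA replicate 1 was nearer to the DMSO libraries and NECA replicate 2 kept over 60% of their mean. Their log2 fold changes of -0.42 (SE 0.16, adjusted p = 0.206) and -0.47 (SE 0.15, adjusted p = 0.152) were the smallest of the group and did not pass.

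Of the inhibitory coreceptors, Btla fell. Btla, a receptor of the CD28 family also found on T cells and dendritic cells (chromosome 16, 45224315 to 45257670), stood at 9.04 and 7.91 CPM under DMSO against 3.24 and 0.711 under NECA. Its libraries did not overlap between groups, as for 24.3% of all genes tested in this direction. The log2 fold change was -2.06 (SE 0.43, adjusted p = 0.0423). Both other inhibitory coreceptors also had their NECA libraries below the DMSO libraries but did not pass. Cd22, a lectin that dampens receptor signalling, had 14.4 and 12.6 CPM under DMSO against 6.32 and 1.62 under NECA and a log2 fold change of -1.74 (SE 0.39, adjusted p = 0.056). Cd72, a coreceptor that binds semaphorin, had 1.36 and 1.86 CPM under DMSO against 1.21 and 0.517 under NECA (log2 fold change -0.87, SE 0.53, adjusted p = 0.478). Counts of Cd22 and Cd72 are uncertain because their exons share 479 and 1423 bases with antisense genes, of which Gm29439 beside Cd22 had 0 counts in every library and Tesk1 beside Cd72 had 2.04, 2.76, 2.42 and 1.74 CPM in the order DMSO replicates 1 and 2 and NECA replicates 1 and 2.

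Of the 7 surface receptors and markers none passed edgeR's test, with 6 lower at an unadjusted p under 0.05, against 8.88% of all genes, and DESeq2 called 1, Tnfrsf13c. Ms4a1, the membrane protein CD20, had 19.3 and 21.1 CPM under DMSO against 9.06 and 0.969 under NECA (log2 fold change -1.97, SE 0.51, adjusted p = 0.0879). Tnfrsf13c, the BAFF receptor on which mature B cells depend, had 4.81 and 6.96 CPM under DMSO against 2.58 and 0.646 under NECA (log2 fold change -1.83, SE 0.46, adjusted p = 0.0768). Ly6d, a marker of early lymphoid commitment, had 5.70 and 7.86 CPM under DMSO against 3.57 and 0.129 under NECA. For these 3 genes NECA replicate 2 was far below the other libraries. Fcmr, the Fc receptor for IgM, had 6.79 and 5.36 CPM under DMSO against 3.08 and 0.258 under NECA. Cxcr5, the chemokine receptor that guides B cells to follicles, had 3.08 and 5.26 CPM under DMSO against 2.09 and 1.62 under NECA, so NECA replicate 2 lay near NECA replicate 1. Its exons share 110 bases with the antisense gene Bcl9l, which stood at 10.9, 14.1, 13.2 and 10.8 CPM in the same order of libraries. Fcer2a, the low-affinity IgE receptor CD23, had 51 and 78 counts with DMSO and 36 and 3 with NECA. Cr2, whose NECA replicate 1 lay between the DMSO libraries, had 26 and 40 counts with DMSO and 28 and 1 with NECA. Log2 fold changes of Ly6d, Fcmr, Cxcr5, Fcer2a and Cr2 were -1.82, -1.81, -1.16, -1.59 and -1.06, with adjusted p of 0.191, 0.145, 0.133, 0.235 and 0.565.

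Neither gene of antibody secretion passed edgeR's test, with 1 of the 2 lower at an unadjusted p under 0.05 (8.88% of all genes were) and 0 called by DESeq2. Jchain, the joining chain of IgM, had 11 and 10 counts with DMSO and 4 and 2 with NECA (log2 fold change -1.60, SE 0.81, adjusted p = 0.374). Mzb1, an endoplasmic reticulum chaperone, had 61 and 93 counts with DMSO and 43 and 1 with NECA (log2 fold change -1.68, SE 0.70, adjusted p = 0.266). Mzb1 counts are uncertain because its exons share 695 bases with a neighbouring gene on the same strand. Smaller overlaps of exons touch Pax5 (636 bases, antisense), Iglc3 (93 bases, antisense), Rag1 (80 bases, same strand) and Iglc2 (38 bases, same strand), and a 298-base stretch of Cd79a has a near-identical copy in Gm32220, which had 0 to 7 counts per library.

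**Figure D2:**
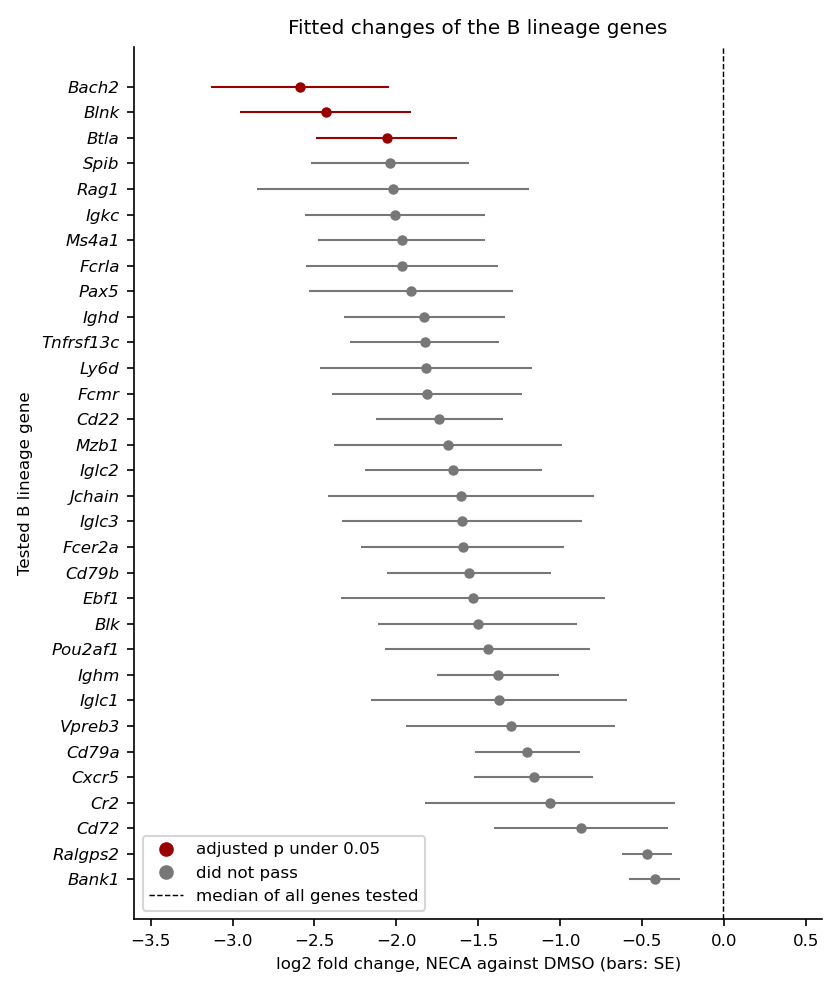
Fitted log2 fold change of NECA against DMSO with its SE for the 32 tested B lineage genes, ordered by value; red points passed at adjusted p under 0.05 and the dashed line is the median of all genes tested. Every point lies left of the dashed line, from -2.59 for Bach2 to -0.42 for Bank1, and the 3 genes that passed are those with the lowest values.

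The genes differed in how much of their DMSO level was left in each NECA library. In NECA replicate 1 the 32 tested genes stood at 25.1% to 88.3% of the DMSO mean (median 51.9%, quartiles 45.6% and 64.8%), and in NECA replicate 2 at 0% to 62.4% (median 5.6%, quartiles 3.49% and 12%). NECA replicate 2 was below NECA replicate 1 in 32 of 32 tested genes, and 21 of them had less than 10% of the DMSO mean left there. The DMSO libraries differed less, with ratios of replicate 1 to replicate 2 between 0.586 and 1.27 (median 0.889). Some genes stood apart within NECA replicate 2, where Pax5 had 4 counts, Igkc 11 and Bank1 228. Bank1 kept 62.4% (53.7 to 72.3%) of the DMSO level by an exact 95% counting interval and Ralgps2 60.1% (52.1 to 69.2%), while Igkc kept 3.48% (1.73 to 6.27%), Pax5 1.86% (0.505 to 4.80%) and Ms4a1 4.80% (2.67 to 7.96%). Between these lay Cd79a at 21.5% (17.3 to 26.4%), Ighm at 15.3% (13.5 to 17.4%) and Cd79b at 7.58% (4.97 to 11.1%). Their intervals do not overlap those of Bank1 or Pax5, so within that library the genes did not stand at 1 common fraction of their DMSO level. Cxcr5 kept 38.7% (24.4 to 59.4%) and Cd72 32.1% (13.3 to 67.5%), and the exons of both overlap the antisense neighbours given above. In NECA replicate 1 the same genes were closer together, with Ighm at 60.5% (56.8 to 64.5%), Cd79a at 64.4% (57 to 72.8%), Igkc at 44.7% (37.5 to 52.9%) and Pax5 at 49.5% (40.4 to 60.2%), while Bach2 at 25.1% (12.9 to 44.8%) and Blnk at 30.6% (20.03 to 45.5%) were the lowest of the tested genes and Bank1 at 86.3% (76.3 to 97.5%) near the top.

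**Figure D3:**
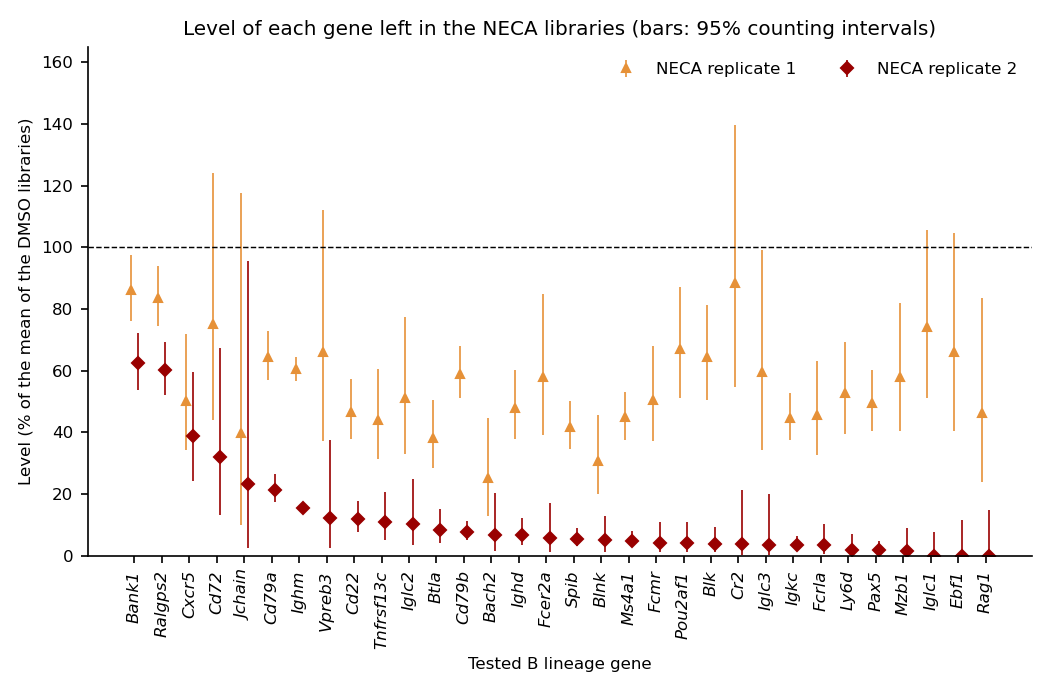
Level of each tested B lineage gene in NECA replicate 1 (triangles) and NECA replicate 2 (diamonds) as a percentage of the mean of the DMSO libraries, ordered by NECA replicate 2; bars are exact 95% counting intervals and the dashed line is the DMSO mean. Bank1 and Ralgps2 keep about 60% in NECA replicate 2, and all but these, Cxcr5, Cd72 and Jchain have 21.5% or less left.

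The number of genes that passed depended on single libraries, while the direction did not. Without DMSO replicate 1 or DMSO replicate 2, 0 of the 32 genes were lower by edgeR (0.344% and 0.459% of all genes tested were), with 22 and 15 lower at an unadjusted p under 0.05 (6.9% and 6.7% of all genes were). Without NECA replicate 1, 29 of the 32 were lower (4.54% of all genes), with a median log2 fold change of -4.13, and without NECA replicate 2, 12 of the 32 were lower (1.51% of all genes), with a median of -0.94. A fit without a library takes the lone library of that group to vary as the other group does. The groups did not vary alike, with Igkc at 20.1 and 20.7 CPM under DMSO against 9.12 and 0.711 under NECA. Calls made without a NECA library thus do not measure the spread under NECA. Without NECA replicate 2 the log2 fold changes of Ighm, Ighd and Igkc were -0.72, -1.06 and -1.16. Both NECA libraries lay below both DMSO libraries in 31 of the 32 genes, so leaving 1 library out could hardly turn the sign. All 32 log2 fold changes were below 0 in each of these 4 fits. For Bach2 they were -2.65 and -2.52 without DMSO replicates 1 and 2 and -3.83 and -1.98 without NECA replicates 1 and 2. Blnk stood at -2.68, -2.14, -4.29 and -1.70 in the same order, and Btla at -1.96, -2.16, -3.56 and -1.39. With library size alone 5 of the 32 were lower (1.66% of all genes). With no filter on low counts 26 of the same 32 were, against 2.64% of the 22344 genes in that fit, which include genes of low count. With DESeq2, Bach2 and Tnfrsf13c were lower (2 genes of the group, against 1.3% of all genes) and Blnk and Btla were not (adjusted p = 0.309 and 0.336). Bach2 was thus the 1 gene called by both tools, which used the same counts and are not separate checks. With 13 and 3 counts under NECA, Bach2 passed the filter on low counts through its DMSO libraries.

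**Figure D4:**
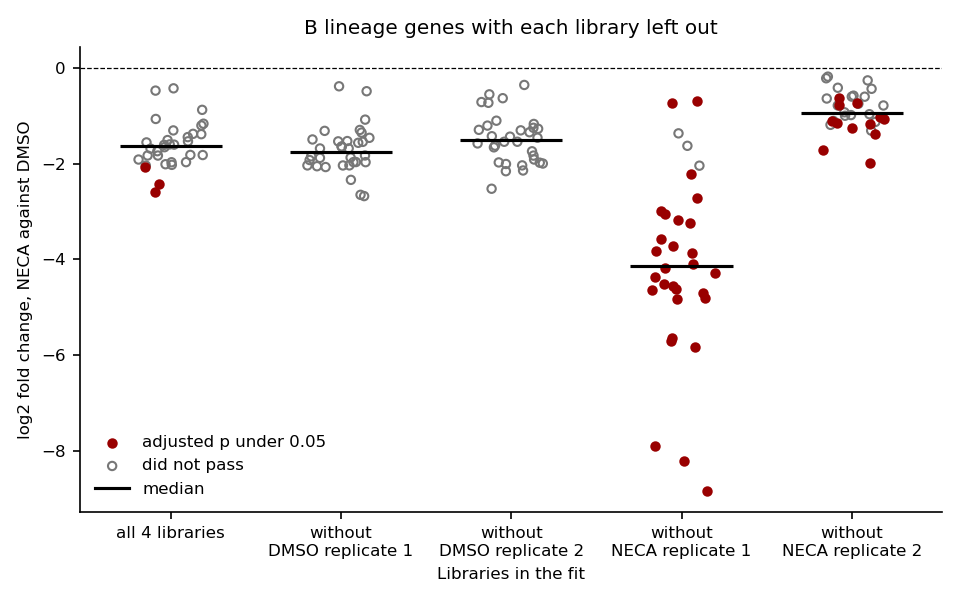
Log2 fold changes of the 32 tested B lineage genes (points) and their median (line) with all 4 libraries and with each library left out; red points passed at adjusted p under 0.05. The median is -1.63 with all libraries, -4.13 when NECA replicate 1 is dropped and -0.94 when NECA replicate 2 is, and no point lies above 0.

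Other genes of the lineage were read from 2 further lists. Of 30 genes of B cell receptor signalling and coreceptors, all were tested, 0 were higher and 2 were lower, with a median log2 fold change of 0.09. Most of them, such as Syk, Lyn, Btk and Plcg2, kinases and a phospholipase that also serve neutrophil receptors, were abundant in every library, with Lyn at 301 and 294 CPM under DMSO against 326 and 340 under NECA (log2 fold change 0.16, SE 0.05, adjusted p = 0.162). Vav2, a guanine nucleotide exchange factor, fell, with a log2 fold change of -1.54 (SE 0.25, adjusted p = 0.0121), from 14.6 and 11.2 CPM with DMSO to 5.44 and 3.36 CPM with NECA, and the kinase Fyn fell by 1.24 on the log2 scale (SE 0.25, adjusted p = 0.0372). Of all genes tested, 0.352% were called higher and 0.978% lower. At an unadjusted p under 0.05 in edgeR's test, 7 genes of the list were higher and 6 lower (8.88% of all genes tested were lower). The number called changed with the library left out. Swap70, an actin-binding protein of B cells, had 14.8 and 13.7 CPM under DMSO against 10.6 and 7.82 under NECA (log2 fold change -0.62, SE 0.18, adjusted p = 0.118).

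On the list of other B cell and plasma cell genes, 36 of 49 were tested, 0 were higher and 1 was lower, with a median log2 fold change of -1.03. The lower gene was Irf8, a factor of B cells, monocytes and dendritic cells, at 15.8 and 15 CPM under DMSO against 8.35 and 3.62 under NECA (log2 fold change -1.34, SE 0.28, adjusted p = 0.0423). At an unadjusted p under 0.05 in edgeR's test, 4 genes of this list were higher and 22 lower (8.88% of all genes tested were lower). Here too the number called changed with the library left out. Pou2f2, the octamer factor Oct-2, had 15.8 and 13.5 CPM under DMSO against 8.40 and 3.81 under NECA (log2 fold change -1.24, SE 0.28, adjusted p = 0.056), and Siglecg, an inhibitory lectin of B cells, had 14.9 and 16 CPM under DMSO against 9.89 and 4.33 under NECA (log2 fold change -1.10, SE 0.28, adjusted p = 0.0803). Mef2c, a factor in B cell and myeloid development, had a log2 fold change of -0.83 (adjusted p = 0.088). Cd55, which protects cells from complement, and Xbp1, a factor of secretory cells, had log2 fold changes of 0.28 and 0.25 (adjusted p = 0.084 and 0.0945). Both had their NECA libraries above both DMSO libraries, a pattern that 22.4% of all genes tested showed. Of the markers of antibody-secreting cells, Tnfrsf17, Igha and Ighg1 had 0 counts in every library and Prdm1 had 9 and 9 counts with DMSO and 4 and 1 with NECA. These genes were picked after their values were seen and do not stand for all such genes of the list. Xbp1 was as given above, and the IgG constant region Ighg2c had 53 counts in DMSO replicate 1 and 0 in each of the other libraries.

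Markers of several other cell types were also lower in the NECA libraries, in 2 patterns. Of 11 erythroid markers found (12 listed), all had log2 fold changes below 0 with a median of -1.85, and their summed level was 1234 and 534 CPM under DMSO against 377 and 60.03 under NECA, with 0 called by edgeR in either direction (10 at an unadjusted p under 0.05) and 0 by DESeq2. Of all genes tested, 8.88% were lower at an unadjusted p under 0.05. The number of erythroid markers called lower changed with the library left out. Their tested genes stood at a median of 44.5% of the DMSO mean in NECA replicate 1 and 6.27% in NECA replicate 2, as the B lineage genes did at 51.9% and 5.6%. Of 18 markers of monocytes and macrophages, 13 were lower and 0 higher, against 0.978% and 0.352% of all genes tested. Fewer were called lower without DMSO replicate 1. For these markers the medians were 37.3% and 30.9%, and the summed level was 638 and 560 CPM under DMSO against 312 and 255 under NECA. T and NK cell markers stood at 43.2% and 30.7% (9 of 16 tested, 0 called by edgeR or DESeq2, 5 at an unadjusted p under 0.05 in edgeR). Their summed level was 34.6 and 35.8 CPM under DMSO against 21 and 20.7 CPM under NECA. Cd3e, Klrb1c, Eomes and Ncr1 had 0 counts in both NECA libraries, but were among the genes with too few counts to test. Dendritic cell markers stood at 71.5% and 47.9% (7 of 12 tested, 0 called by edgeR or DESeq2, 2 at an unadjusted p under 0.05 in edgeR, summed level 35.3 and 31.1 CPM against 26.5 and 21.3 CPM). The 16 neutrophil and PMN-MDSC markers did not all move alike. Of them, 2 had log2 fold changes below 0, the lowest at -1.19, and the highest was 0.37. With no filter on low counts, 10 of them were higher and 1 was lower, against 1.28% and 2.64% of the 22344 genes in that fit. Neutrophil and PMN-MDSC markers stood at 111% in each NECA library (16 tested, 2 higher, Mmp8 and Mmp9, and 0 lower). Of all genes tested, 0.352% were higher. The numbers called among these markers, the T and NK cell markers and the dendritic cell markers changed with the library left out. A large gap between the NECA libraries was thus seen for the B lineage and erythroid genes and not for the macrophage markers, a difference between lists that was not tested. The part of these other cells, and of the number of B lineage cells in each preparation, in the values above was not tested.

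**Figure D5:**
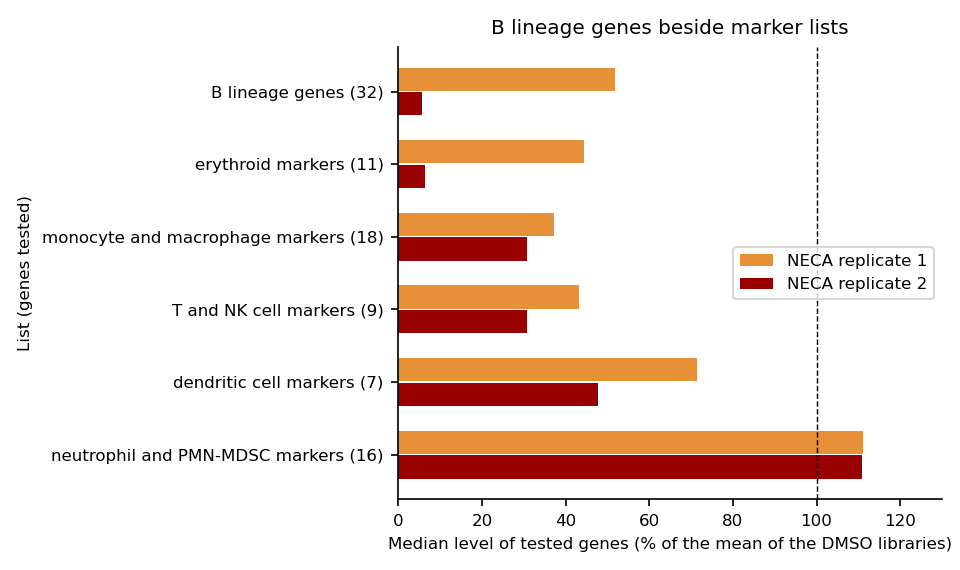
Median level of the tested genes of each list in NECA replicate 1 and NECA replicate 2 as a percentage of the DMSO mean (dashed line at 100%). B lineage genes and erythroid markers stand at 5.6% and 6.27% in NECA replicate 2, against 30.9% for macrophage markers and 111% for neutrophil markers.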

How the data were processed

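RNA of 4 libraries was measured, 2 of PMN-MDSC kept 5 days with NECA and 2 with DMSO. Per the labels' protocols, cDNA was made with a SMARTer kit, amplified and sequenced in pairs. The authors deposited, per the file headers, gene counts and FPKM for 54532 genes; the submitters' processing notes list HISAT, StringTie and edgeR with 2 build names, GRCm38 and mm10, and whether counting used strand is not given in the sources used here. The FPKM deposited by the authors served only to compare levels between genes and were not tested.

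Counts as deposited were filtered (filterByExpr, minimum count 10), scaled by TMM and tested with edgeR's quasi-likelihood test (edgeR 4.0.16 in R 4.3.3), with Benjamini-Hochberg adjustment over all 13083 tested genes and a threshold of 0.05. Standard errors were obtained as log2 fold change over the root of the F statistic. Levels are CPM on TMM-scaled library sizes; the percentages of DMSO carry exact conditional intervals at 95%, and a library at 0 was set to a floor of 3 counts. Depth was 15864120 to 18712625 counts per library, and 19 of the tested B lineage genes had under 10 counts in a NECA library, which limits the precision of their values there. The code was tested on simulated data. Alternatives were DESeq2 1.42.0, library size alone, no filter, a replicate block and leaving out each library. Exon overlaps came from GENCODE M21 on GRCm38, and copies are stretches of at least 150 bases at 98% identity or more. The 35 genes, the other lists and the motifs were chosen with earlier results of these data known. All 35 are named by symbol whatever their values, and of each further B cell list up to 6 genes with the smallest p, except that some of these are not reported here; Prdm1, Tnfrsf17, Igha, Ighg1, Syk, Btk and Plcg2 were picked after their values were seen. Marker lists give counts, medians and summed levels.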

Additional observations from a re-analysis of the deposited data

How the results depend on the processing

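The direction of the B lineage genes held in every alternative run: of 255 log2 fold changes computed, 0 reversed, and 0 genes of the group were higher in any. In 31 of the 32 tested genes both NECA libraries lay below both DMSO libraries, so the direction was largely set before these runs. The runs reuse the same libraries and are not separate checks of it. The number of genes lower did not hold. With all 4 libraries 46 genes were higher and 128 lower, 3 of them B lineage genes. With library size alone these counts were 21, 217 and 5 (1.66% of all genes lower). DESeq2 called 141 higher (157 lower, 2 of them B lineage genes, 1.3% of all genes). With no filter on low counts they were 285, 590 and 26, the last among the same 32 genes (2.64% of the 22344 genes in that fit were lower). With the replicate block they were 123, 298 and 15 (2.28% lower). Whether the replicate numbers pair the libraries is not given in the labels; deviations of same-numbered libraries correlated at r = 0.02 over 13083 genes, and 2 pairs do not settle it. Leaving out 1 library gave 8 to 227 genes higher, 45 to 594 lower, 0 to 29 B lineage genes lower and a median log2 fold change of -4.13 to -0.94. The cause of these shifts was not tested. In NECA replicate 2, 5 of the 35 genes had 0 counts, so their levels there are known only as upper limits.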

Other observations

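Variable segments of the immunoglobulin genes, which were looked at after values had been seen, did not follow the constant regions alike. The 160 kappa segments (Igkv) held 236 and 239 counts with DMSO and 140 and 11 with NECA, and the 3 lambda segments (Iglv) held 59 and 62 counts with DMSO and 28 and 0 with NECA. The 185 heavy chain segments (Ighv) held 1555 and 1320 counts with DMSO and 1311 and 1008 with NECA. The summed Ighv level was 81.3 and 70.1 CPM under DMSO against 72 and 65.1 under NECA. Ighm, their constant region, stood at 15.3% of the DMSO mean in NECA replicate 2. Of the Ighv segments, 73 and 69 were detected with DMSO and 66 and 35 with NECA. The most abundant were Ighv1-41, at 14.6 and 10.8 CPM under DMSO against 12.5 and 11 under NECA, and Ighv1-69, at 11.5 and 9.98 CPM under DMSO against 12.7 and 11.8 under NECA. None of the 18 tested Ighv segments was called by edgeR, and their median log2 fold change was -0.06. The difference between heavy and light chain segments was not tested.

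The IgG constant region Ighg2c had 53 counts in DMSO replicate 1 and 0 in each of the other libraries.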
